A study of Rattus norvegicus with 9 samples.

Results

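The genes described here are 10 genes of arginine and nitric oxide metabolism, taken as a named list: the arginine transporter Slc7a2, the arginases Arg1 and Arg2, the ornithine decarboxylase Odc1, the nitric oxide synthases Nos2 and Nos3, the arginine-making enzymes Ass1 and Asl, and Ddah1 and Ddah2. Each was read from the probeset whose annotation gives that gene as its only symbol. Each of the 10 has 1 such probeset, out of 18166 genes with a single-symbol probeset, and all 10 passed the filter on dim genes. RNA came from hepatic macrophages of 9 male Sprague-Dawley rats, in 3 groups of 3: sham surgery, and partial portal vein ligation (PPVL) followed for 3 or for 10 days. PPVL narrows the portal vein over a blunt needle and serves to raise portal pressure in rats. Sham rats had the same operation with no ligature, and the labels give neither a day of collection for them nor an age for any rat. The series asks how the expression profile of these cells changes with time after ligation, which gives 3 comparisons, sham with either day and the days with each other.

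Arginine is the shared substrate of arginase, which splits it into urea and ornithine, and of nitric oxide synthase, which turns it into citrulline and nitric oxide. Ass1 and Asl act in sequence to rebuild arginine from citrulline, and Ddah enzymes break down asymmetric dimethylarginine, an inhibitor of nitric oxide synthases. In macrophages arginase 1 is known as a gene of alternative activation and inducible nitric oxide synthase (Nos2) as a gene of inflammatory activation, and in the liver nitric oxide is known as a regulator of sinusoidal tone.

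All values are log2 signals of 1-colour arrays after robust multi-array averaging, and array medians lay between 5.21 and 5.26. The median standard error of a log2 difference was 0.086, and precision is limited by having 3 arrays per group. Of the macrophage markers some were bright, with Cd68 between 10.74 and 11.42 and the growth factor receptor gene Csf1r between 9.75 and 10.62. The macrophage genes Mertk (9-array mean 4.77), Cd163 (4.50) and Marco (5.27) were dim. Probesets of genes that define resident Kupffer cells were also dim, with 9-array means of 5.03 for Clec4f, 4.40 for Timd4 and 4.26 for Vsig4 beside a filter value of 4.16. Lymphocyte genes were bright in the same RNA, with the T cell gene Cd3e between 9.11 and 9.91 and the perforin gene Prf1 between 11.38 and 12.02. In such bulk RNA, fewer cells of a type and less RNA per cell cannot be told apart. By the labels every array is its own rat.

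At 3 days after PPVL, 4 of the 10 genes were higher than in sham rats: Arg1 rose 2.46-fold, Ass1 1.83-fold, Ddah1 1.47-fold and Asl 1.31-fold. No member was lower at the test's threshold. Among all 14014 genes tested, 2.15% were called higher, beside 4 of 10 here. The median difference of the 10 genes was 0.33 on the log2 scale, beside -0.014 over all genes tested. At an unadjusted p under 0.05 there were 5, beside 15.5% of all genes. In 5 of the 10 the 3 PPVL rats lay above the 3 sham rats, and 10.1% of all genes did so. Differences are given below as log2 difference ± standard error (n = 3 rats in each group). The adjusted p comes from limma's moderated test with Benjamini-Hochberg adjustment over 14014 genes.

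**Figure D1:**
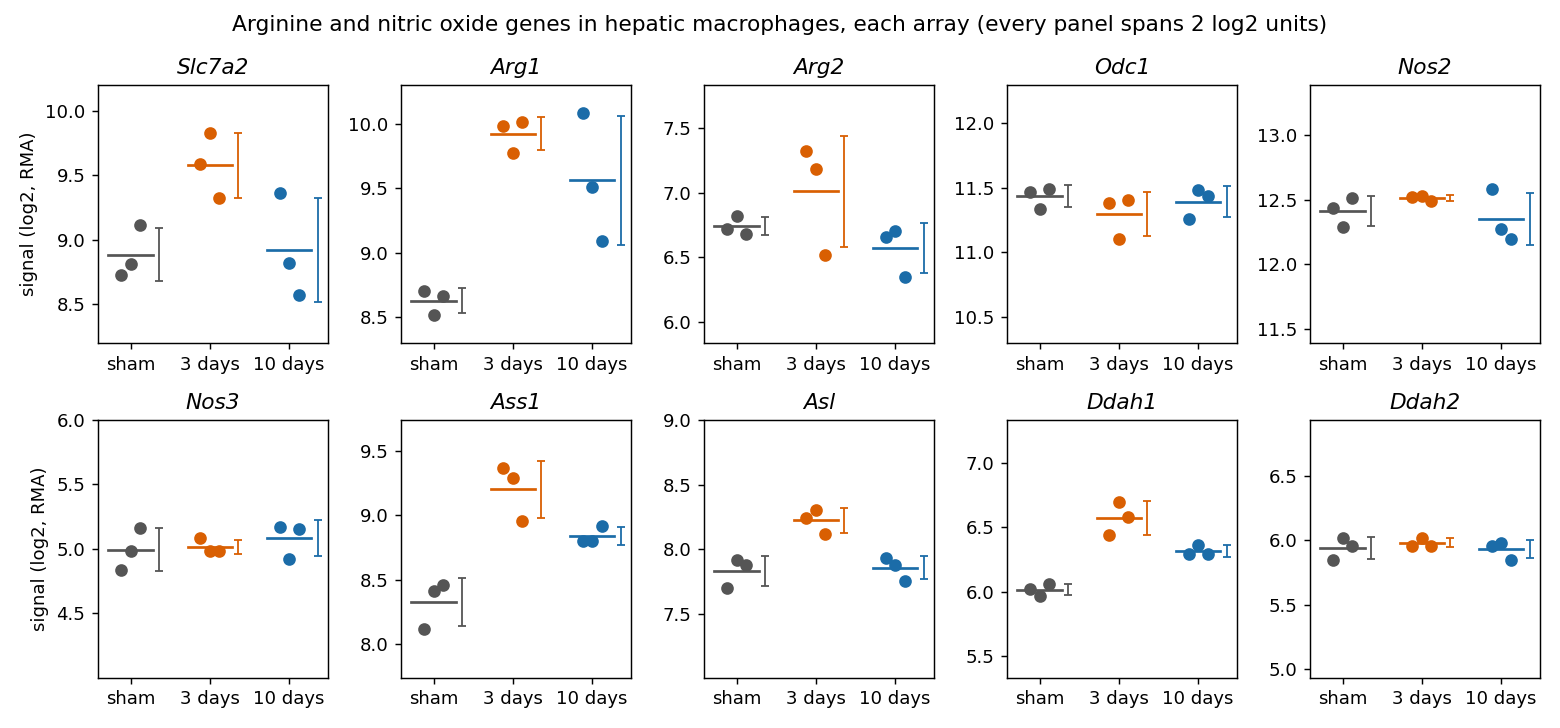
Log2 signal of the 10 genes on each of the 9 arrays, by group (points: rats; horizontal line: group mean; bar beside it: SD, n = 3; every panel spans the same log2 range). The 3-day points of Arg1, Ass1, Asl, Ddah1 and Slc7a2 lie above all sham points, while those of Nos2, Nos3, Ddah2 and Odc1 overlap with sham.

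Arg1, the cytosolic arginase, had signals of 8.70, 8.52 and 8.66 in the sham rats, 9.98, 9.78 and 10.02 at 3 days, and 10.09, 9.51 and 9.09 at 10 days. Every PPVL rat was above every sham rat, and the 10-day rats spread more widely (SD 0.50) than the sham rats (SD 0.10) or the 3-day rats (SD 0.13). The difference from sham at 3 days was 1.30 ± 0.20 (95% interval 0.84 to 1.75, adjusted p = 0.0113), and it passed in each of the 9 fits without 1 array. At 10 days it was 0.94 ± 0.20 (95% interval 0.48 to 1.39), with adjusted p = 0.0698. The 10-day and 3-day groups overlapped and differed by -0.36 ± 0.20 (adjusted p = 0.533).

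Arg2, the mitochondrial arginase, did not pass in any comparison. It read 6.72, 6.82 and 6.68 in sham rats, 7.33, 7.19 and 6.52 at 3 days and 6.66, 6.70 and 6.35 at 10 days. At 3 days 2 rats were above all other rats and rat 3 was below the sham rats, so that the difference of 0.27 ± 0.18 (adjusted p = 0.554) became 0.52 when 3-day rat 3 was left out, but 0.11 when rat 1 and 0.18 when rat 2 of that group was. The 95% interval of the difference, -0.14 to 0.68, lies below the value measured for Arg1.

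Odc1 makes the first polyamine from ornithine, the product of arginase. Its signal lay between 11.33 and 11.49 in sham rats, 11.10 and 11.40 at 3 days and 11.26 and 11.48 at 10 days. The 3 groups overlapped, with differences from sham of -0.14 ± 0.097 at 3 days (adjusted p = 0.581) and -0.041 ± 0.097 at 10 days (adjusted p = 0.887).

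Slc7a2, a cationic amino acid transporter known to supply arginine to activated macrophages in the mouse, read 8.73, 8.81 and 9.11 in sham rats. Its signals were 9.58, 9.82 and 9.32 at 3 days and 9.36, 8.82 and 8.57 at 10 days. The 3-day rats were all above the sham rats, whereas the 10-day rats lay on both sides of them. The difference at 3 days was 0.69 ± 0.20 (95% interval 0.25 to 1.14) and did not pass (adjusted p = 0.111, and 0.0553 to 0.307 without 1 array). At 10 days it was 0.034 ± 0.20 (adjusted p = 0.955), and 10 days against 3 days gave -0.66 ± 0.20 (adjusted p = 0.285).

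**Figure D2:**
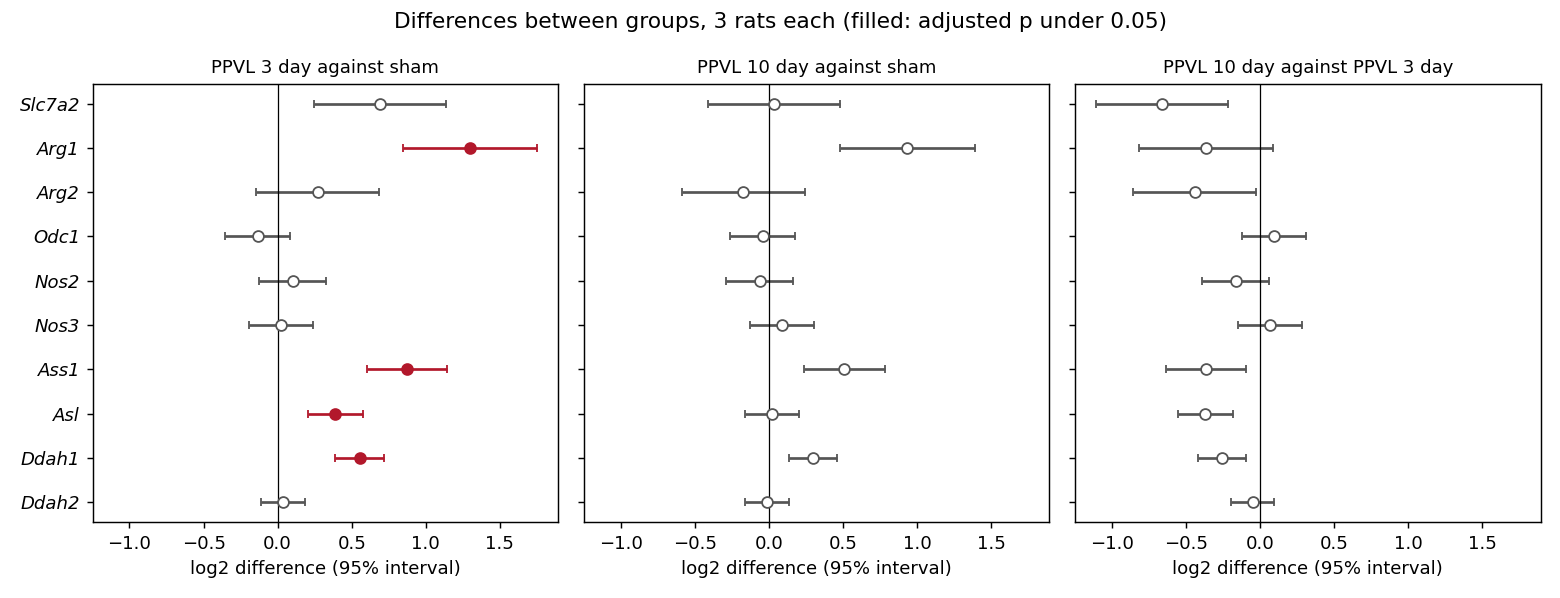
Log2 differences between groups for the 10 genes in the 3 comparisons (points: limma estimate; bars: 95% interval; filled points: adjusted p under 0.05). At 3 days Arg1 (1.30), Ass1 (0.87), Ddah1 (0.55) and Asl (0.39) are filled, and at 10 days no point is filled although the intervals of Arg1, Ass1 and Ddah1 lie above 0.

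Nos2, the inducible synthase that makes nitric oxide in large amounts, was bright in every rat, sham included. Its signals were 12.43, 12.29 and 12.52 in sham rats, 12.52, 12.53 and 12.49 at 3 days and 12.58, 12.27 and 12.20 at 10 days. The groups overlapped, and the differences from sham were 0.10 ± 0.10 at 3 days (95% interval -0.13 to 0.33, adjusted p = 0.712) and -0.062 ± 0.10 at 10 days (95% interval -0.29 to 0.16, adjusted p = 0.820). The probeset stood at the 99.8th percentile of the mean signals on the array. Probesets differ in affinity, so this gives its place on the scale and not its transcript abundance.

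Nos3, the endothelial synthase, was dim, between 4.83 and 5.17 over the 9 arrays. It did not pass at 3 days (0.023 ± 0.097, adjusted p = 0.947) or at 10 days (0.090 ± 0.097, adjusted p = 0.706). The endothelial cadherin gene Cdh5 was at a like place on the scale, between 4.47 and 5.18, and differed from sham by 0.18 ± 0.18 at 3 days (adjusted p = 0.712).

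The log2 distance between Arg1 and Nos2 within an array sets the signal of 1 gene against the other, since effects common to an array cancel in it. Arg1 minus Nos2 was -3.73, -3.77 and -3.85 in sham rats, -2.54, -2.75 and -2.47 at 3 days and -2.50, -2.76 and -3.11 at 10 days. All PPVL rats were above all sham rats, and the shift was 1.20 at 3 days and 1.00 at 10 days. Each has p = 0.1 in a 2-sided exact permutation test, the smallest that 3 rats against 3 allow, and the days differed by -0.20 (exact permutation p = 0.4). Nos2 itself differed from sham by 0.10 and -0.062 at 3 and 10 days, and Arg1 by 1.30 and 0.94. Arg1 alone already set all PPVL rats above all sham rats. The distance therefore mostly restates the Arg1 difference, and the permutation test, whose p cannot go below 0.1, gives no separate support.

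Ass1 joins citrulline and aspartate into argininosuccinate, the step that limits the remaking of arginine. Its signal was 8.11, 8.42 and 8.46 in sham rats, 9.37, 9.29 and 8.95 at 3 days and 8.80, 8.80 and 8.92 at 10 days. The groups formed 3 steps without overlap, with sham lowest, 10 days between and 3 days highest. The rise at 3 days was 0.87 ± 0.12 (95% interval 0.60 to 1.15, adjusted p = 0.00669) and passed in each of the 9 fits without 1 array. At 10 days the difference was 0.51 ± 0.12 (adjusted p = 0.0825), and from 3 to 10 days it was -0.36 ± 0.12 (adjusted p = 0.329).

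Asl, which releases arginine from argininosuccinate, read 7.70, 7.92 and 7.88 in sham rats, 8.24, 8.31 and 8.12 at 3 days and 7.93, 7.88 and 7.75 at 10 days. The 3-day rats were above all others, and the 10-day rats overlapped with sham. It rose by 0.39 ± 0.082 at 3 days (95% interval 0.21 to 0.57, adjusted p = 0.0384) and differed by 0.022 ± 0.082 at 10 days (adjusted p = 0.931). The call at 3 days was lost in 7 of the 9 fits without 1 array, most clearly without 3-day rat 2 (adjusted p = 0.130), and held without 3-day rat 3 (0.0405) and without 10-day rat 3 (0.0481). From 3 to 10 days the difference was -0.37 ± 0.082, with an unadjusted p of 0.00130 and adjusted p = 0.211.

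Ddah1 had the smallest p among the 10 genes at 3 days. Its signal was 6.02, 5.97 and 6.06 in sham rats, 6.44, 6.70 and 6.58 at 3 days and 6.29, 6.36 and 6.29 at 10 days. As with Ass1, the groups did not overlap and the 10-day rats lay between the others. The rise at 3 days was 0.55 ± 0.073 (95% interval 0.39 to 0.72, adjusted p = 0.00507) and passed in all 9 fits without 1 array. The difference at 10 days was 0.30 ± 0.073 (adjusted p = 0.0914), and from 3 to 10 days it was -0.26 ± 0.073 (adjusted p = 0.282).

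Ddah2, the other dimethylarginine hydrolase, stayed between 5.85 and 6.02 on all 9 arrays. It differed from sham by 0.038 ± 0.066 at 3 days (95% interval -0.11 to 0.19, adjusted p = 0.849) and by -0.012 ± 0.066 at 10 days (adjusted p = 0.955). Its interval at 3 days lies below that of Ddah1.

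The upstream sequences of the 3 genes other than Arg1 that rose are shown because Ass1, Asl and Ddah1 moved together at 3 days. They are the 250 bases before the annotated start, from RefSeq on build GRCr8, which is not stated to be the build of the array, and 5 of the 10 genes matched an entry (Nos3, Ddah1, Ass1, Asl and Odc1). Each is written 5′ to 3′ on the strand of the gene, and capitals mark motif matches.
Ass1, chr3:35149480-35149729, plus strand: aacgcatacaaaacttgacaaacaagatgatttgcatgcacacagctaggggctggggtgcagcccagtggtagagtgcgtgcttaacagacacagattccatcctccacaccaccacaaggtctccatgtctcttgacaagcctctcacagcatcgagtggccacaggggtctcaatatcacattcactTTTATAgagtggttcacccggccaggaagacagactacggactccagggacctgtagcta
Asl, chr12:32295658-32295907, plus strand: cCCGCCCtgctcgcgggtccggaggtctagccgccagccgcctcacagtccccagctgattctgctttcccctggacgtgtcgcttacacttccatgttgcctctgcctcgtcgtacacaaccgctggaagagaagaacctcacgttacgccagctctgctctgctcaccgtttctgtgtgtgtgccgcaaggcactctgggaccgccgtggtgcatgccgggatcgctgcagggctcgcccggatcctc
Ddah1, chr2:237327562-237327811, plus strand: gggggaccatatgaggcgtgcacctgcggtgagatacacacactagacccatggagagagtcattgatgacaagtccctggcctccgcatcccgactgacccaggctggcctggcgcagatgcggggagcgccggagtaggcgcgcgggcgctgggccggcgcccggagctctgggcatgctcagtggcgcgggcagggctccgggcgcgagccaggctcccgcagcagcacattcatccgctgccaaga
Both strands were searched for 6 motifs, which do not overlap here. The TATA box was spelled TATAAA, and of 33469 promoters of the same length 12.9% held it. The CCAAT box, spelled as its name, was held by 34.0% of those promoters. The GC box was spelled GGGCGG and was held by 30.5% of them. The core of binding sites for the myeloid factor PU.1 was spelled GAGGAA and was held by 23.3%. The motif of AP-1 was spelled TGANTCA, with a share of 6.34%. The motif of C/EBP factors was spelled TTGCNNAA, with a share of 9.22%. Ass1 held a TATA box on the opposite strand, 60 to 55 bases before the start. Asl held a GC box on the opposite strand, 249 to 244 bases before the start, and Ddah1 held none of the motifs. The windows of Asl and Ddah1 hold 21 and 22 CpG dinucleotides, that of Ass1 holds 5, and the median of all promoters is 5. These matches describe the letters of the windows, and no motif was found in more than 1 of the 3.

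At 10 days after PPVL, 0 of the 10 genes passed the test with limma, where 0.735% of all genes did. At an unadjusted p under 0.05 there were 3, Arg1, Ass1 and Ddah1, beside 16.2% of all genes. These 3 were also the genes whose 10-day rats all lay above the sham rats, which 9.88% of all genes showed. The median difference of the 10 genes was 0.028, beside -0.00040 over all genes tested. Both days are set against the same 3 sham rats.

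Between the days 0 of the 10 genes passed with limma, where 0.0714% of all genes did. At an unadjusted p under 0.05 there were 5, Asl, Ddah1, Slc7a2, Ass1 and Arg2, all lower at 10 days, beside 11.3% of all genes. In Asl, Ddah1 and Ass1 the 10-day rats lay below all 3-day rats, as in 7.74% of all genes. The median difference of the 10 was -0.31, beside 0.005 over all genes tested.

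Around these genes, 93 further genes of 11 lists were tested. The lists cover transport, the urea cycle, polyamines, proline, methylarginines, tetrahydrobiopterin, synthase partners, nitric oxide signalling, inducers of both enzymes and alternative activation. At 3 days 6 of the 93 rose and 2 fell, beside 2.15% and 0.714% of all genes, and the median difference of the 93 was 0.034. Of these, Egr2, Klf4, Irf8, Ccl24 and Chi3l1 belong to the lists of inducers and alternative activation, not to arginine metabolism itself. At 10 days 2 of the 93 rose, beside 0.492% of all genes, and the median of the 93 was 0.029. Between the days 0 passed with limma, and 12 had an unadjusted p under 0.05, beside 11.3% of all genes. At 3 and 10 days 33 and 23 of the 93 did, beside 15.5% and 16.2% of all genes.

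**Figure D3:**
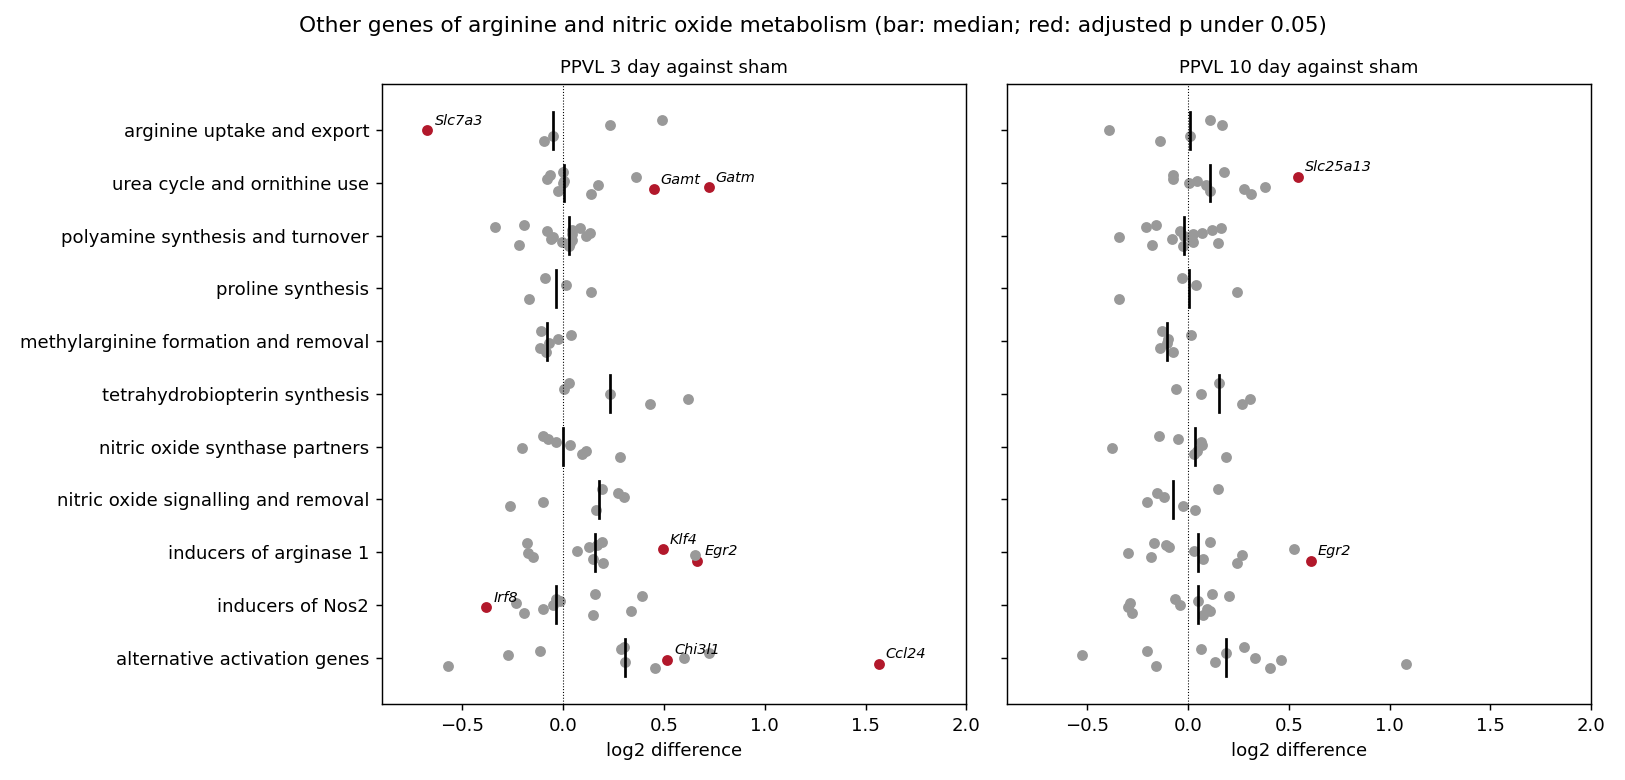
Log2 differences from sham of the tested genes in the 11 lists at 3 days (left) and 10 days (right); each point is a gene, black bars are list medians and red points have adjusted p under 0.05. Gatm, Gamt, Egr2, Klf4, Chi3l1 and Ccl24 are the red points to the right at 3 days, Slc7a3 and Irf8 those to the left, and Slc25a13 and Egr2 are red at 10 days.

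Of the 11 tested genes of the urea cycle and ornithine use, 2 rose at 3 days, beside 2.15% of all genes. Both serve creatine synthesis from arginine. Gatm, which moves the amidino group of arginine to glycine, had signals of 4.59, 4.57 and 4.91 in sham rats, 5.44, 5.68 and 5.11 at 3 days and 5.13, 5.01 and 5.08 at 10 days. It rose by 0.72 ± 0.14 at 3 days (adjusted p = 0.0284). Gamt, which completes creatine by methylation, rose by 0.45 ± 0.096 (adjusted p = 0.0415). Neither call was firm, since that of Gatm held in 2 and that of Gamt in 1 of the 9 fits without 1 array (highest adjusted p 0.103 and 0.132).

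Slc25a13, the mitochondrial exporter of the aspartate that Ass1 uses, was the gene of this list that rose at 10 days. It read 6.81, 6.98 and 6.93 in sham rats, 7.15, 7.42 and 7.22 at 3 days and 7.29, 7.44 and 7.61 at 10 days. All PPVL rats were above all sham rats, with differences of 0.36 ± 0.099 at 3 days (adjusted p = 0.0963) and 0.54 ± 0.099 at 10 days (adjusted p = 0.0485). The call at 10 days was kept in 1 of 9 fits without 1 array (highest adjusted p 0.145).

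Cps1 and Otc, the urea cycle enzymes that define hepatocytes together with high Arg1 and Ass1, were dim. Cps1 lay between 4.44 and 4.66 on all arrays and differed from sham by -0.024 ± 0.056 at 3 days (adjusted p = 0.891). Otc lay between 2.69 and 3.13, below the filter, with group means of 2.95 in sham rats, 2.77 at 3 days and 3.05 at 10 days.

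Among transporters, Slc7a3, a cationic amino acid transporter, fell at 3 days by 0.67 ± 0.12 on the log2 scale (adjusted p = 0.0182). It was the only one of 5 tested to pass, and 0.714% of all genes fell. Its signals were 5.95, 6.22 and 6.34 in sham rats, 5.53, 5.47 and 5.49 at 3 days and 5.55, 5.86 and 5.93 at 10 days, so that all PPVL rats were below all sham rats. That call held in 6 of 9 fits without 1 array. In 2 of the 5 transporters, Slc7a6 and Slc7a7, the 3-day rats lay above all sham rats, beside 10.1% of all genes.

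None of 15 polyamine genes passed with limma, and 2 had an unadjusted p under 0.05 at 3 days, beside 15.5% of all genes. The spermidine synthase gene Srm differed by -0.20 ± 0.071 at 3 days (adjusted p = 0.202) and the hypusinated translation factor gene Eif5a by -0.34 ± 0.12 at 10 days (adjusted p = 0.190). None of 4 proline synthesis genes passed. At an unadjusted p under 0.05 there were 0 at 3 days and 1 at 10 days, beside 15.5% and 16.2% of all genes. Aldh18a1, the first enzyme of proline synthesis from glutamate, differed by -0.34 ± 0.092 at 10 days (adjusted p = 0.109), and the proline dehydrogenase gene Prodh at 10 days by 0.24 ± 0.20 (adjusted p = 0.601). Of 6 genes that form or remove methylarginines, 0 passed. At either day 0 had an unadjusted p under 0.05, beside 15.5% and 16.2% of all genes. The arginine methyltransferase genes Prmt3 and Prmt5 differed at 10 days by -0.14 ± 0.069 and -0.10 ± 0.074 (adjusted p = 0.356 and 0.531).

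Tetrahydrobiopterin is the cofactor of nitric oxide synthases. All 5 tested genes of its synthesis had differences above 0 at 3 days, as did 6302 of all 14014 genes. The smallest was that of Qdpr (0.0048), and Spr had group means of 6.23 in sham rats and 6.25 at 3 days. With limma 0 passed, and 3 had an unadjusted p under 0.05, beside 15.5% of all genes. Gch1, the first and limiting enzyme, read 7.82, 8.12 and 8.13 in sham rats and 8.33, 8.66 and 8.37 at 3 days. The groups did not overlap, and the difference was 0.43 ± 0.12 (adjusted p = 0.0969). Its feedback regulator Gchfr differed by 0.62 ± 0.18 (adjusted p = 0.125), with the highest sham rat and the lowest 3-day rat tied at 5.55.

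None of 8 nitric oxide synthase partners passed with limma. At each day 2 had an unadjusted p under 0.05, beside 15.5% and 16.2% of all genes. The kinase Akt1, which phosphorylates endothelial synthase, differed by 0.28 ± 0.077 at 3 days (adjusted p = 0.0969), and the chaperone Hsp90ab1 by -0.38 ± 0.081 at 10 days (adjusted p = 0.0698). None of 6 genes of nitric oxide signalling and removal passed. Under an unadjusted p of 0.05 there were 2 at 3 days and 0 at 10 days, beside the same shares of all genes. Pde5a, which degrades the cyclic GMP made in response to nitric oxide, differed by -0.42 ± 0.13 from 3 to 10 days (adjusted p = 0.314), as did the haemoglobin gene Hba-a1, by -0.42 ± 0.14 (adjusted p = 0.318), whose signal may include that of its near-identical copies.

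Among 12 inducers of arginase 1, Egr2 and Klf4 rose at 3 days, beside 2.15% of all genes. Both are transcription factors known in alternatively activated mouse macrophages. Differences at 3 days were above 0 in 9 of the 12 and below 0 in 3. In 5 of the 12 the 3-day rats lay above all sham rats, beside 10.1% of all genes. In 2, Il4r and Stat3, they lay below all sham rats, as in 1214 of all 14014 genes. Egr2 read 10.81, 10.83 and 10.95 in sham rats, 11.48, 11.75 and 11.35 at 3 days and 11.44, 11.59 and 11.38 at 10 days. It rose by 0.66 ± 0.10 at 3 days (adjusted p = 0.0115, passing in all 9 fits without 1 array) and by 0.61 ± 0.10 at 10 days (adjusted p = 0.0449, passing in 3 of 9). Klf4 rose by 0.49 ± 0.11 at 3 days (adjusted p = 0.0494), a call lost in each of the 9 fits without 1 array, and differed by 0.53 ± 0.11 at 10 days (adjusted p = 0.0674).

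Of 11 inducers of Nos2, only Irf8 passed, and it fell at 3 days, beside 0.714% of all genes. This transcription factor, known to act with Irf1 on the mouse Nos2 gene, lay between 10.97 and 10.98 in sham rats, 10.51 and 10.65 at 3 days and 10.63 and 10.74 at 10 days. The sham rats were above all PPVL rats. It fell by 0.38 ± 0.060 on the log2 scale at 3 days (adjusted p = 0.0116, passing in all 9 fits without 1 array) and differed by -0.30 ± 0.060 at 10 days (adjusted p = 0.0595). Differences at 3 days were below 0 in 7 of the 11 inducers and above 0 in 4. In 3, Ifngr2, Tnfrsf1a and Hif1a, the 3-day rats lay above all sham rats, beside 10.1% of all genes. In 3, Irf8, Ifngr1 and Myd88, they lay below all sham rats, as in 1214 of all 14014 genes.

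Of 11 tested alternative activation genes, the chemokine Ccl24 and the chitinase-like Chi3l1 rose at 3 days, beside 2.15% of all genes. Differences were above 0 in 8 of the 11 and below 0 in 3, and the lowest was that of Ccl22 (-0.57), whose 3-day rats all lay below the sham rats. Retnla and Chi3l3, with 9-array means of 3.04 and 2.61, were below the filter and not tested. Ccl24 read 4.99, 5.31 and 5.40 in sham rats, 6.28, 6.73 and 7.39 at 3 days and 6.16, 6.24 and 6.55 at 10 days, with no PPVL rat as low as a sham rat. Its differences were 1.56 ± 0.24 at 3 days (adjusted p = 0.0106) and 1.08 ± 0.24 at 10 days (adjusted p = 0.0705). Chi3l1 rose by 0.51 ± 0.11 (adjusted p = 0.0444), a call lost in each of the 9 fits without 1 array.

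The genes whose signals ran most like a member's were listed by Pearson correlation over the 9 arrays, as a description without a test, since arrays of a group share their group's shift. For Arg1 they were Edil3 (r = 0.956), C3h9orf78 (0.954), Lhfpl2 (0.947), Galns (0.946) and Dsg2 (0.944). For Ass1 they were Arhgap21 (r = 0.990), the glycogenin Gyg1 (0.988), the early endosome gene Eea1 (0.987), the chemokine receptor Ccr1 (0.986) and galectin-3, Lgals3 (0.983). Ddah1 ran most like Cd300le (r = 0.992), Dab2 (0.968), Oscar (0.968), the cholesterol 25-hydroxylase Ch25h (0.965) and the nucleotide receptor P2ry2 (0.964). Asl ran most like the growth factor Csf1 (r = 0.981), LOC100362296 (0.977), the copper chaperone Atox1 (0.976), Serpinb2 (0.974) and Serpinb1a (0.969). Nos2, which varied little, ran most like Diras2 (r = 0.934), Rpl36Al2 (0.906), Rtn2 (0.904), Skic2 (0.880) and Erf (0.880).

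Some monocyte and macrophage markers rose in the same comparison at 3 days. Of 6 monocyte markers 4 rose, beside 2.15% of all genes, among them Vcan (1.24 ± 0.17, adjusted p = 0.00631) and Ccr2 (0.85 ± 0.17, adjusted p = 0.0331). Each array's score for a list averages the log2 signals of its genes, each centred on its 9-array mean. The monocyte score lay between -0.61 and -0.22 in sham rats, 0.23 and 0.44 at 3 days and -0.071 and 0.031 at 10 days, the order seen for Ass1 and Ddah1. Of 12 macrophage genes 3 rose, namely Cd14, Itgam and Lyz2, and 9 had differences above 0. Those of Mertk, Marco and Timd4 were below 0 (-0.052, -0.22 and -0.10). The macrophage score lay between -0.23 and -0.21 in sham rats and 0.047 and 0.35 at 3 days. At 10 days 1 of the 12 macrophage genes, Itgam, rose (0.78 ± 0.11, adjusted p = 0.0414), beside 0.492% of all genes. The part of these shifts in the rises of Arg1, Ass1, Asl and Ddah1 was not tested.

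**Figure D4:**
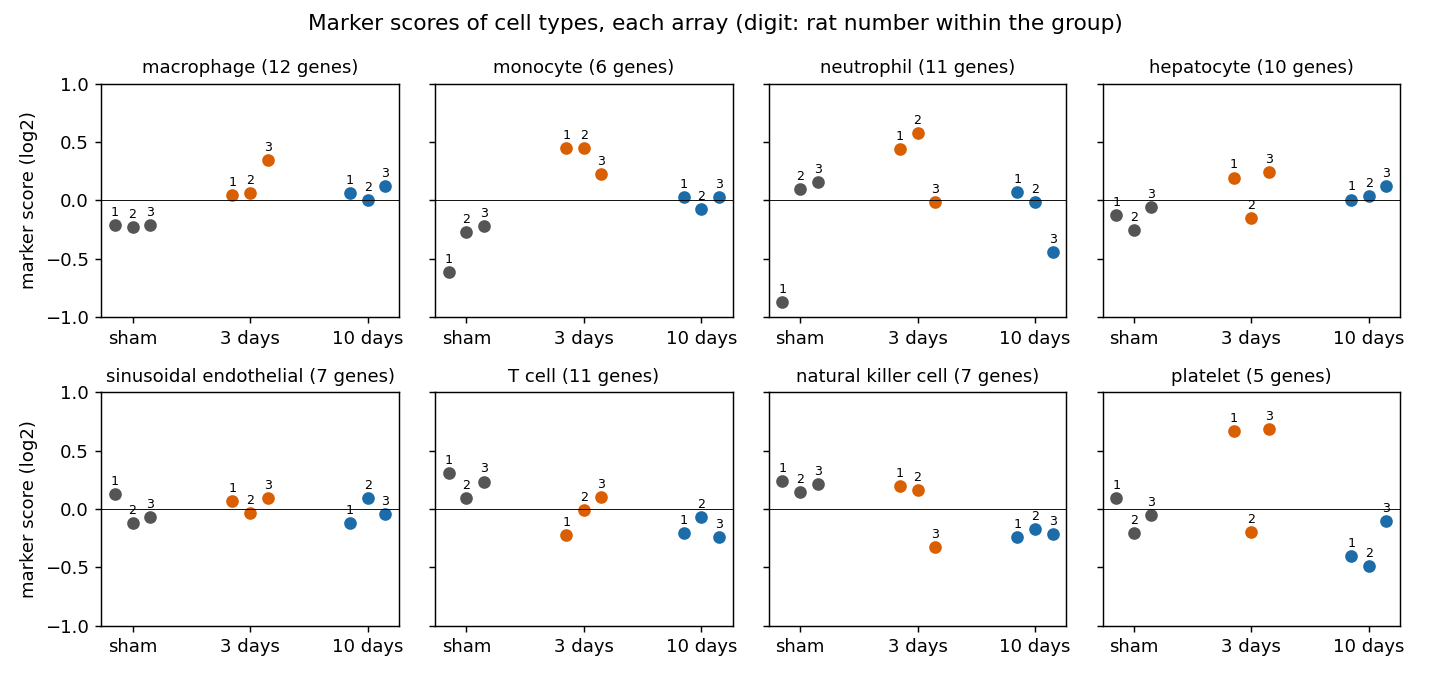
Scores of 8 cell type marker lists on each array (y axis: mean log2 deviation over the list's genes; points: rats, numbered within their group). Macrophage and monocyte scores are higher in all 3-day rats than in all sham rats, while the hepatocyte, endothelial and platelet scores overlap between these groups and sham rat 1 stands at -0.87 in the neutrophil score.

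Hepatocyte markers bear on Arg1, Ass1, Asl and Ddah1, which hepatocytes also express. Of 10 tested hepatocyte genes 1 rose at 3 days, the haptoglobin gene Hp (0.72 ± 0.13, adjusted p = 0.0225), beside 2.15% of all genes. Differences were above 0 in 9 of the 10 at 3 days (median 0.16) and in all 10 at 10 days (median 0.18), where 6302 and 6978 of all 14014 genes were above 0. Their part in the rises of the 4 genes was not tested. Albumin, Alb, differed by 0.75 ± 0.39 (adjusted p = 0.413) and ranged from 6.83 to 9.01 over the arrays. The hepatocyte score lay between -0.26 and -0.062 in sham rats and was 0.20, -0.15 and 0.24 in 3-day rats 1, 2 and 3. With this score as a covariate Ddah1 and Ass1 passed at 3 days (adjusted p = 0.0242 and 0.0366), while Arg1 differed by 1.26 (adjusted p = 0.0721) and Asl by 0.50 (adjusted p = 0.0510). The score itself differs between the groups (mean -0.15 in sham rats and 0.095 at 3 days), so this fit cannot separate the 2.

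Most T and natural killer cell genes had lower signals at 3 days (9 of 11 and 6 of 7), without passing, beside 7707 of all 14014 genes. Cd2 and Cd4 of the T cell list differed by 0.19 and 0.20. At 3 days 0 of 11 T cell genes and 0 of 7 natural killer cell genes passed with limma. At an unadjusted p under 0.05 there were 8 and 1, beside 15.5% of all genes. The median differences of the lists were -0.34 and -0.18. Cd3e differed by -0.34 ± 0.13 (adjusted p = 0.237). At 10 days 10 of 11 T cell genes and 7 of 7 natural killer cell genes had lower signals, beside 7034 of all 14014 genes. In 10 and 6 of them the 10-day rats lay below all sham rats, as in 1559 of all 14014 genes. The T cell gene Cd5 passed at 10 days (-0.58 ± 0.10, adjusted p = 0.0449), where 0.735% of all genes did. With a score of both lists as a covariate, chosen after the data had been examined, the differences at 3 days were 1.28 for Arg1, 0.77 for Ass1, 0.74 for Ddah1 and 0.37 for Asl, and none passed (adjusted p = 0.468, 0.453, 0.191 and 0.651). That score itself differs between the groups.

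Of the other lists at 3 days, 2 of 11 neutrophil genes rose, 2 of 6 B cell genes rose and 1 fell, and 2 of 6 dendritic cell genes fell. Over all genes 2.15% rose and 0.714% fell. With limma 0 of 7 sinusoidal endothelial, 0 of 7 stellate, 0 of 5 platelet and 0 of 2 erythroid genes passed. At an unadjusted p under 0.05 there were 0, 0, 3 and 1, beside 15.5% of all genes. The neutrophil gene S100a8 ranged from 6.34 to 9.06 and differed by 1.19 ± 0.42 (adjusted p = 0.191). Sham rat 1 stood apart from the other sham rats in the neutrophil score (-0.87 against 0.099 and 0.16). It was also the lowest sham rat for Ass1 and Asl, and without it the 3-day differences were 0.77 for Ass1 (adjusted p = 0.0172) and 0.32 for Asl (adjusted p = 0.112).

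**Figure D5:**
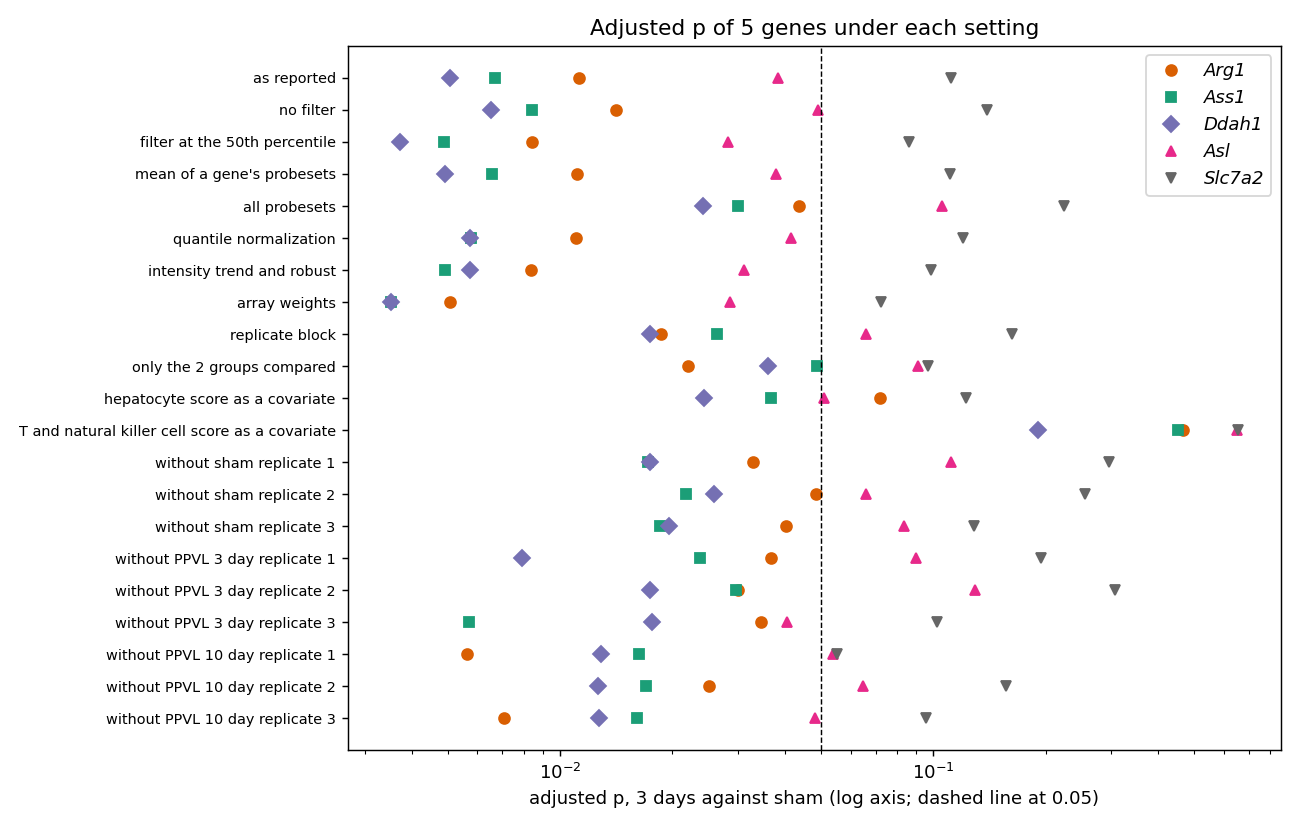
Adjusted p of Arg1, Ass1, Ddah1, Asl and Slc7a2 at 3 days against sham as reported and under each other setting (x axis: adjusted p on a log scale; dashed line at 0.05). Ass1 and Ddah1 lie left of the line in every setting but the one with the T/NK cell score, Arg1 also crosses it with the hepatocyte score, and Slc7a2 lies right of it throughout.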

How the data were processed

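Hepatic macrophage RNA from 9 rats, 1 array per rat, was compared in 3 groups of 3. The deposited values are log2 signals per probeset. The authors normalised them by RMA and used the Transcriptome Analysis Console, per the submitters' processing notes, and versions are not given in the sources used here. No further normalisation was applied.

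Of 36685 probesets, 18511 carry 1 gene symbol in the platform annotation, 575 several and 17599 none. Each of 18166 genes was read from its probeset with the highest mean. Genes with a mean under the 30th percentile of all probesets (4.16) were left out, and 14014 were tested. A group-means model over all 9 arrays was fitted with limma 3.58.1 in R 4.3.3 (lmFit, eBayes, 6 residual and 3.59 prior degrees of freedom). Two-sided p-values were adjusted by Benjamini-Hochberg over all genes tested, and genes under 0.05 were called, whatever their fold. The procedure was tested on simulated data. Arg1 minus Nos2 was compared by an exact permutation test.

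The members, gene lists and tests were chosen with earlier results of these data known. All 10 members are named. From each pathway list, genes past the threshold in any comparison are named, or otherwise the 2 with the smallest unadjusted p. For members past the threshold, and for Arg1 and Nos2, the 5 genes with the highest correlation over the arrays are named. Vcan, Ccr2, Hp, Prf1, Cd5 and the Kupffer cell genes were named after their values were seen. So were Il4r, Stat3, Ifngr1, Ifngr2, Tnfrsf1a, Hif1a, Myd88, Slc7a6, Slc7a7, Qdpr and Spr. Of 239 list genes 34 had no match to a single-symbol probeset and were not analysed here, among them Apoa1 and Stab2. Alternatives were other filters, averaged probesets, a fit over all probesets, array weights, quantile normalization, a variance trend with intensity, a replicate block, fits of only the groups compared, marker scores as covariates and fits without 1 array.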

Additional observations from a re-analysis of the deposited data

How the results depend on the processing

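Over the differences of the 10 genes in the 3 comparisons, 556 alternatives kept the direction and the side of the threshold. Another 16 lost a call and 1 gained one, and 24 turned the sign, these 24 all in comparisons where the gene had not passed. Only Arg1, Ass1, Ddah1 and Asl at 3 days had a call to lose. The 16 losses thus fall on these 4 differences, and most of the 556 are differences that had not passed. The number of the 10 genes passing at 3 days, 4, was 2 with the hepatocyte score, 0 with the T/NK cell score and 3 to 4 without 1 array. At 10 days 1 passed with array weights (Arg1, 1.02, adjusted p = 0.0386). Over the 93 pathway genes, the number passing at 3 days, 8, was 5 with no filter, 3 over all probesets, 2 when only the groups compared were fitted, 4 with the hepatocyte score, 0 with the T/NK cell score and 3 to 6 without 1 array (3 without sham rat 2, 6 without 3-day rat 3). At 10 days the number passing, 2, was 0 with no filter, over all probesets and with either score, 5 with an intensity trend, 4 with array weights and 0 to 3 without 1 array (0 when any one sham or 10-day rat was left out, 3 when 3-day rat 1 was). Between the days it was 0 to 1 without 1 array. Besides the scores, Asl lost its call at 3 days over all probesets (adjusted p = 0.106) and with only the groups compared (0.0908). With the replicate number as a block, the replicate block gave 3 of the 10 genes (Asl lost, adjusted p = 0.0661), 5 pathway genes at 3 days and 0 at 10 days, and 264 of all genes where 401 passed without it. The numbers were not taken to pair the rats: deviations of same-numbered rats from their group means correlated between -0.095 and 0.084, 0 of 9 pairs above 0.1, and 1 of 9 arrays correlated best with its own number. Signs turned for Odc1 at 10 days with quantile normalization (0.022). For Nos3 at 3 days the value was -0.0020 with array weights, -0.030 with the hepatocyte score and -0.18 with the T/NK cell score. With the hepatocyte score Arg2 and Ddah2 at 10 days were at 0.032 and 0.042. With the T/NK cell score the values at 10 days were 0.20 for Arg2, 0.064 for Nos2, -0.26 for Nos3 and -0.0047 for Asl, and between the days -0.077 for Nos3. Without 1 array, the differences that crossed 0 ranged at 3 days from -0.057 to 0.11 for Nos3 and -0.0075 to 0.075 for Ddah2. At 10 days they ranged from -0.044 to 0.072 for Asl, -0.19 to 0.21 for Slc7a2, -0.057 to 0.029 for Ddah2, -0.089 to 0.026 for Odc1 and -0.18 to 0.014 for Nos2, and between the days from -0.0028 to 0.16 for Odc1. These are recounts, and some include genes that had not passed before (Gchfr without sham rat 3, Pde5a without 3-day rat 2, Ccl24 at 10 days without 3-day rat 1 or 3). For each change, the cause was not tested.

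The labels give no day for sham rats, and each group holds 3 rats, so a permutation test cannot go below 0.1. Nos3 was the dimmest of the 10 genes, with group means from 4.99 to 5.08 beside the filter at 4.16. Protein, enzyme activity and nitric oxide were not analysed here.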

Other observations

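The 10-day rats differed among themselves in some of the genes. Rat 1 had the highest signal of its group for Arg1 (10.09 against 9.51 and 9.09), for Slc7a2 (9.36 against 8.82 and 8.57) and for Nos2 (12.58 against 12.27 and 12.20). Its Arg1 signal was above those of all 3-day rats. For Ass1 the 10-day rats lay close together, at 8.80, 8.80 and 8.92, and for Ddah1 at 6.29, 6.36 and 6.29. Without 10-day rat 1, Arg1 differed from sham by 0.67 at 10 days.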
